A study of Mus musculus with 2 samples.

Results

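The brush border cytoskeleton genes are 10 genes whose products build, bundle or tether the microvilli on the apical surface of intestinal epithelial cells: Vil1, Ezr, Myo1a, Myo7b, Espn, Eps8, Pls1, Cdhr2, Cdhr5 and Ush1c. They were taken by name, and every probe set with 1 of these symbols as its only platform gene symbol was used. This gave 10 probe sets for 8 of the 10 genes, out of 15279 probe sets and 8721 named genes in all. Eps8 had 3 probe sets and the other 7 genes had 1 each, and Myo1a and Cdhr2 were not analysed here. The arrays measured total RNA of colon epithelial cells from C57BL/6 mice, an inbred strain, 7 weeks old. The cells themselves had been incubated, in one group with PBS, a buffered salt solution, and in the other with MIF, taken here to be the cytokine macrophage migration inhibitory factor. Each group was a single Affymetrix array, so no difference below has a test, an SD between samples or a replicate check. The sources used here do not give the dose, incubation time, number of animals or method of cell isolation, and nothing beyond the agent is recorded as differing between the groups.

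A microvillus is a finger of membrane around a bundle of parallel actin filaments. Villin, fimbrin, espin and Eps8 cross-link or cap the filaments, while ezrin and myosin 1a join the bundle to the membrane around it. At the tips, the protocadherins Cdhr2 and Cdhr5 adhere across neighbouring microvilli and are anchored from inside by harmonin (the product of Ush1c) and myosin 7b, so that the microvilli pack into an ordered array. In the colon the brush border lies on the absorptive cells and is shorter than in the small intestine.

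The sequences just upstream of transcription starts are shown for 4 of the genes. The Vil1 and Cdhr5 sequences each hold letters that match a motif marked below. Ezr and Espn had the highest and lowest differences between the arrays when each gene is represented by its brightest probe set. Whether the motifs bear on the signals was not tested. The sequences are the 250 bases before a start in RefSeq (GRCm38.p6), read 5′ to 3′ on the gene's strand. Capitals mark a CArG box, the site of serum response factor, or the letters TTTAT, the core bound by caudal homeobox factors such as Cdx2, on either strand.
Vil1, chr1:74409134-74409383, + strand: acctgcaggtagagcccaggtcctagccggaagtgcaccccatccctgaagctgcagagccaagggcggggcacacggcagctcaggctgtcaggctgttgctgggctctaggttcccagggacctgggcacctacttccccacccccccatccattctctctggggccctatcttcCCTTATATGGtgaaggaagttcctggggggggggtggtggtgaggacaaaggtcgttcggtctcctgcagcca
Cdhr5, chr7:141276787-141277036, - strand: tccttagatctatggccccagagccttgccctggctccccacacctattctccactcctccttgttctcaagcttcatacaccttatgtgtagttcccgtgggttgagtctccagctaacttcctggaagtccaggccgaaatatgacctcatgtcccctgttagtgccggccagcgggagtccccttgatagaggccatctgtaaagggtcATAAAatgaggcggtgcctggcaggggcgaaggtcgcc
Ezr, chr17:6782781-6783030, - strand: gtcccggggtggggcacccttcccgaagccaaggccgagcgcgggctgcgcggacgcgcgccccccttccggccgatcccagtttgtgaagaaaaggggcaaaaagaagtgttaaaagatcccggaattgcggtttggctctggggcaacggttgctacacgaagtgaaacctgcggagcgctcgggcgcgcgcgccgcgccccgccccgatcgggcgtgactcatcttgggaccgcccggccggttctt
Espn, farthest upstream of 3 listed starts, chr4:152152390-152152639, - strand: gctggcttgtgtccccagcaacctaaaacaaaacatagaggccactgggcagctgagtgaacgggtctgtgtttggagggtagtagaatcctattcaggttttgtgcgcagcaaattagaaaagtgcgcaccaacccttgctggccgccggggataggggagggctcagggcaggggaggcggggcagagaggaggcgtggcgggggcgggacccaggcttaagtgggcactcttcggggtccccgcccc

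RefSeq windows were matched for 6 of the 8 measured genes, 8 windows in all, since Espn has 3. The Vil1 window held the only CArG box among them, beginning 73 bases before the start, and 1.47% of the 32851 windows of this length held one. TTTAT was present in 2 of the 8 windows, once in Cdhr5, beginning 38 bases before the start, and once in a downstream Espn window that is not printed. Of all windows, 37.3% held it. No window of these genes held CAAAGT, the core of the motif of the nuclear receptor Hnf4a, which 12.6% of all windows held. CArG and TTTAT matches did not overlap in these windows. A match describes these letters only.

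All 8 measured genes were above the signal floor of 232, the 40th percentile of all signals on both arrays, which is used here as a lower limit for a usable signal. Member signals ran from 553 to 5411, in arbitrary units. Between the arrays the members lay close together. With each gene represented by its brightest probe set, 5 were lower on the MIF array and 3 higher. Their log2 differences (MIF minus PBS) ran from -0.21 to 0.12. By probe set, 5 of the 10 were lower and 5 higher, with a highest difference of 0.23. Of all 5837 assessed genes, 53.3% were lower and 46.7% higher. No member was 1.5-fold higher, as 0.634% of all assessed genes were, and none was 1.5-fold lower, as 0.463% were. At 1.2-fold, which 6.82% of all assessed genes passed upwards and 6.29% downwards, no member was counted in either direction. The same held at 2-fold, which 0.0685% passed upwards and 0.0857% downwards.

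**Figure D1:**
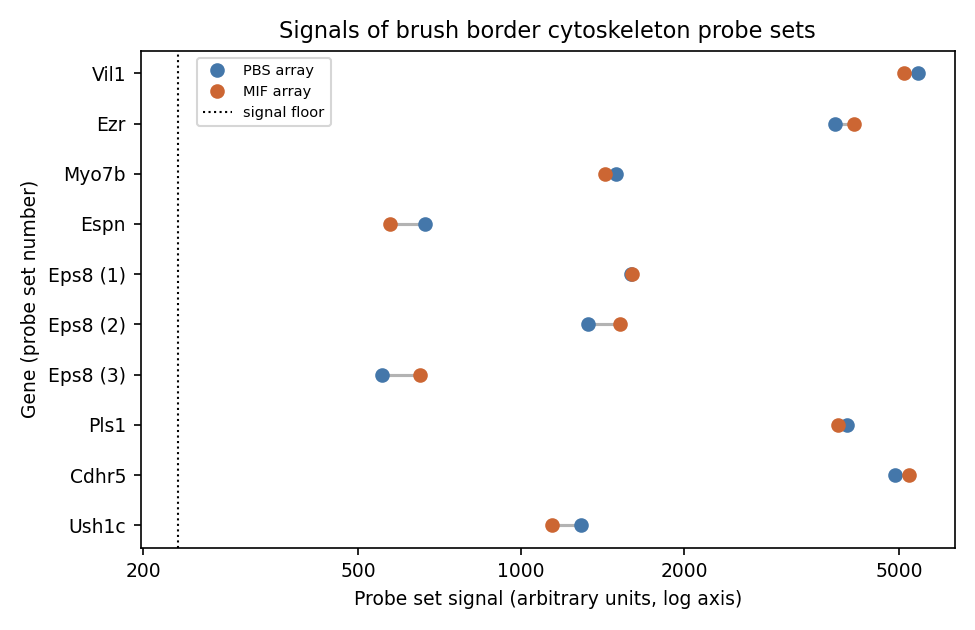
Signals of the 10 probe sets on a log axis, with 1 blue point for the PBS array and 1 orange point for the MIF array, and the signal floor of 232 dotted. Signals run from 553 to 5411 and each pair lies close together, with the widest gaps for Espn and for the Eps8 probe sets numbered 2 and 3.

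The actin bundlers were first examined. Vil1 encodes villin, which bundles, caps and, at high calcium, severs actin filaments and is a classical marker of the intestinal epithelium. Its signal was 5411 with PBS and 5111 with MIF, 1.06-fold lower (log2 difference -0.08). Pls1 encodes plastin 1, the fimbrin of the intestinal brush border. It was at 4007 with PBS and 3853 with MIF, 1.04-fold lower (-0.06). Espn encodes espin, a potent bundler that in mice is also needed for the stereocilia of the inner ear. Its signal was 664 with PBS and 572 with MIF, 1.16-fold lower (-0.21). This was the lowest difference of the 8 genes, and 9.92% of all assessed genes were as low or lower. Its signal lay nearest the floor of the 8, at 2.87 times the floor with PBS and 2.47 times with MIF.

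Eps8 encodes an actin-capping and bundling protein found at microvillus tips, and its 3 probe sets did not give the same difference. The brightest was at 1599 with PBS and 1605 with MIF, a log2 difference of 0.0058. Another, whose probes can also match other transcripts, was at 1330 and 1525, or 0.20. The last, which covers several transcripts of the gene, was at 553 and 649, or 0.23. All 3 were higher on the MIF array, by at most 1.17-fold, with a range of 0.23 between them. Over the 388 genes that also had 3 probe sets with both signals above the floor, the median range was 0.21, and 46.4% had a range at least as wide as that of Eps8. The brightest Eps8 probe set was lower, at -0.03, after the medians of the arrays were centred.

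Ezr encodes ezrin, which in its phosphorylated form ties actin to membrane proteins. It was at 3806 with PBS and 4133 with MIF, 1.09-fold higher (0.12), the highest difference among the 8 genes when each is represented by its brightest probe set. Of all assessed genes, 21.2% were as high or higher. The other ezrin family genes had little signal: moesin (Msn) was under the floor on both arrays, at 22.6 and 28.8, and radixin (Rdx) was at 200 with PBS, under the floor, and 234 with MIF, just above it. The scaffold Slc9a3r1, which binds the ezrin head and is also known as NHERF1 or EBP50, was at 3784 and 3190 on its brightest probe set (-0.25). Its other probe sets differed by 0.02 and -0.06, so the lower signal was not shared by all of them.

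The intermicrovillar adhesion complex was represented by 3 genes. Cdhr5, the adhesion protein itself, was at 4918 with PBS and 5224 with MIF, 1.06-fold higher (0.09). Ush1c, the harmonin scaffold that carries PDZ domains, was at 1287 and 1141, 1.13-fold lower (-0.17), and 14.2% of all assessed genes were as low or lower. Myo7b, the motor that places the complex at the tips, was at 1500 and 1429, 1.05-fold lower (-0.07). The difference of Cdhr5 exceeded that of Ush1c by 0.26 on the log2 scale, against an SD of 0.21 for the gap between a pair of probe sets of the same gene. Among further proteins of this complex, Calml4, a calmodulin-like light chain of myosin 7b, was at 7271 and 6621 (-0.14).

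**Figure D2:**
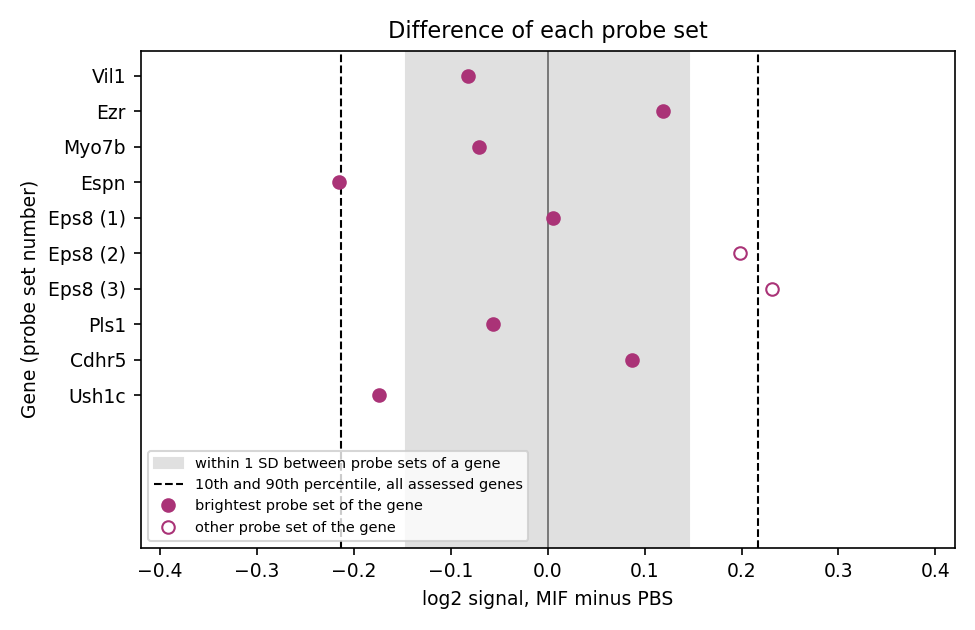
Log2 difference (MIF minus PBS) of each of the 10 probe sets, filled where it represents its gene and open for the other Eps8 probe sets. The grey band is 1 SD between probe sets of a gene (0.15) and the dashed lines are the 10th and 90th percentiles of all assessed genes (-0.21 and 0.22); Espn and Ush1c lie left of the band, and the 2 open Eps8 points right of it.

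The spread between probe sets within these arrays was read from genes with several of them. Over 1800 genes with at least 2 probe sets whose signals both passed the floor, the SD between the differences of a gene's probe sets was 0.15 on the log2 scale, or 1.11-fold. Of the 8 members at their brightest probe sets, 6 differed by less than this, as did 63.8% of all assessed genes. Ush1c and Espn differed by more, both lower, as did the other Eps8 probe sets, at 0.20 and 0.23, both higher. Such an SD mixes hybridisation error with differences between the transcripts that probe sets match, including cross-hybridisation. It does not cover the spread between cell preparations. The median difference of the 8 genes was -0.06, beside -0.01 for all assessed genes. Their median absolute difference was 0.08, beside 0.11. Among the 3034 genes within the range of mean signal that the members span, the SD of the difference was 0.18 and the median -0.02.

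**Figure D3:**
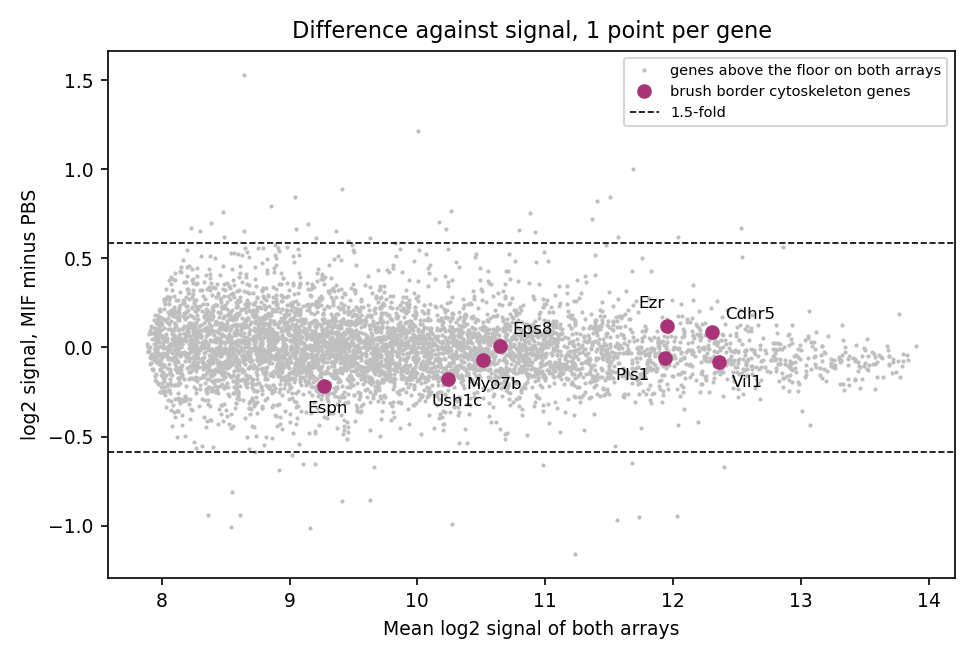
Log2 difference against mean log2 signal for genes above the floor on both arrays (grey) with the 8 brush border cytoskeleton genes in purple and 1.5-fold dashed. The 8 genes, each at its brightest probe set, span the middle to upper signal range and lie between -0.21 and 0.12, inside the cloud of all genes.

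A further 183 genes in 8 lists covered the surroundings of the brush border: its other proteins, ezrin partners, the terminal web, apical trafficking, enzymes and transporters of absorptive cells, myosins, actin regulators and transcription factors. The table held 132 of these outside the members and 113 were above the floor on at least 1 array. As for the members, none of the 113 was 1.5-fold higher or lower on its brightest probe set, while 64 of the 5837 assessed genes were either. Some less bright probe sets did pass 1.5-fold, such as those of Gsn at 0.61 and 0.72 and of Stxbp2 at -0.68. The median difference of the 113 was -0.03, with 44 higher and 69 lower. Beside these counts, and those by list below, 46.7% of all assessed genes were higher and 53.3% lower. By list, the medians ran from -0.08 for the terminal web to 0.02 for the enzymes and transporters.

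Actb, the beta isoform of actin, was at 12326 and 11296 on its brightest probe set (-0.13) and at 498 and 571 on the other (0.20), and the mean of both was 0.04. Actg1, the gamma isoform, was at 13823 and 13198 (-0.07), a direction that turned to 0.03 with quantile normalization and 0.02 with the trend removed. Of 13 assessed genes of other microvillus proteins, 5 were higher and 8 lower. The largest difference was in Tmigd1, an immunoglobulin family adhesion protein of the brush border, at 2065 and 1585 (1.30-fold lower). Baiap2l1, a membrane-bending protein also called IRTKS that acts with Eps8, was at 1866 and 1862 on its brightest probe set and at 1095 and 922 on the other (-0.25). The Eps8 relatives Eps8l2 and Eps8l3 differed by -0.06 and 0.07. The plastin Pls3 was at 346 and 398 (0.20), near the floor, and the leukocyte plastin Lcp1 was under it on both arrays.

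The terminal web, the actin, myosin and keratin layer in which microvilli are rooted, had 15 of 19 assessed genes lower and 4 higher, where 53.3% of all assessed genes were lower. Its median of -0.08 was -0.03 both with quantile normalization and with the trend of the difference with signal removed. Krt19, a keratin of simple epithelia, was at 12233 and 10445 (1.17-fold lower). The actin cross-linker Actn4 was at 5126 and 4447 (1.15-fold lower), and the linker Plec at 2534 and 2199 (-0.20, and -0.08 on its other probe set). Of 10 assessed unconventional myosins, 4 were higher and 6 lower. Myo5c, a transport myosin, was 1.25-fold higher, from 594 to 744, and Myo15b was 1.18-fold lower, from 3124 to 2639, while Myo18a differed by 0.17. Myo6, which moves towards the base of the microvillus, was at 1588 and 1700 (0.10, and 0.0042 on its other probe set above the floor), and Myo1d at 3178 and 3214 (0.02).

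Of 10 assessed ezrin partners and regulators, 5 were higher and 5 lower. The kinase Slk, which phosphorylates ezrin family proteins, was at 685 and 776 (0.18, with 0.19 and 0.09 on other probe sets above the floor). The kinase Stk25 was at 395 and 316 (-0.32). Apical trafficking genes were lower in 9 of 12 cases. Vipas39, a partner of Vps33b in apical sorting, was 1.41-fold lower on its brightest probe set, which can cross-hybridise, and differed by -0.08 on the other. Vamp8, a vesicle fusion protein, was at 1985 and 1696 (-0.23), and Stxbp2, which assists apical vesicle fusion, was at 544 and 480 (-0.18, with 0.01 and -0.68 on other probe sets). Myo5b, the motor of apical recycling vesicles whose loss in humans causes microvillus inclusion disease, was at 1677 and 1627 (-0.04).

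Of 14 assessed genes in the list of enzymes and transporters, 8 were higher and 6 lower. The list is not purely apical, since it also holds the secreted peptides Guca2a and Guca2b, the adhesion protein Cdh17 and the basolateral Slc51a. Slc51a, a subunit of the bile acid exporter, was 1.35-fold lower, from 1376 to 1023. Dpp4, a peptidase of the brush border membrane, was 1.26-fold higher, from 516 to 652, and Slc5a8, a carrier of short-chain fatty acids, was higher by 0.26, from 3061 to 3668. Of 9 assessed transcription factors of the brush border programme, 4 were higher and 5 lower. Hnf4a was at 5672 and 5367 on its brightest probe set (-0.08), but its other 3 probe sets were higher, at 0.20, 0.35 and 0.22. Hnf4g, at 247 and 283 (0.20), lay near the floor, and Klf4 differed by 0.11.

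**Figure D4:**
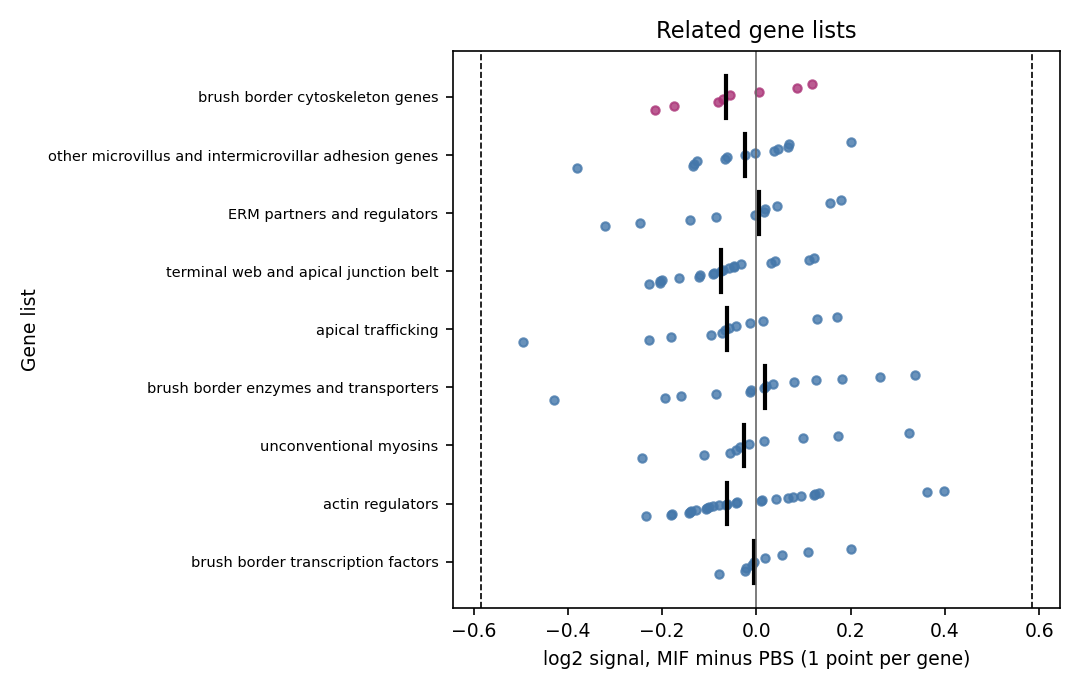
Log2 difference of each assessed gene (1 point per gene, its brightest probe set, stacked only for visibility) in the brush border cytoskeleton genes (purple) and 8 related lists (blue), with a black bar at each list's median and 1.5-fold dashed. No point lies past 1.5-fold, and medians run from -0.08 to 0.02.

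Among 27 assessed actin regulators, 11 were higher and 16 lower, and the largest differences were in relatives of villin. Gsn encodes gelsolin, which severs and caps actin through the same kind of repeated domain as villin. Its 4 probe sets above the floor were all higher on the MIF array, by 0.40 on the brightest (2217 with PBS and 2923 with MIF) and by 0.57, 0.61 and 0.72 on the others. Of these, 3 can cross-hybridise, and the one that is not so marked was at 1565 and 2318. Scin, which encodes scinderin of the same family, was at 1652 and 2121 (1.28-fold higher). Vil1 differed by -0.08, and the brightest Gsn probe set lay 0.48 above it. Cortactin, Cttn, differed by -0.23 on its brightest probe set and by -0.09, 0.01 and 0.38 on the others. Gelsolin is also made by connective tissue cells, and 3 of 7 fibroblast markers in the table were above the floor on at least 1 array, all higher with MIF (2 of these 3 could only be higher, being under the floor with PBS alone). The summed signal of the 7 markers was 751 with PBS and 1877 with MIF, and Dcn was at 235 and 678. This sum used the signals as deposited, not raised to the floor. It includes 4 markers under the floor on both arrays, so its size is uncertain. Their part in the Gsn difference was not tested.

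**Figure D5:**
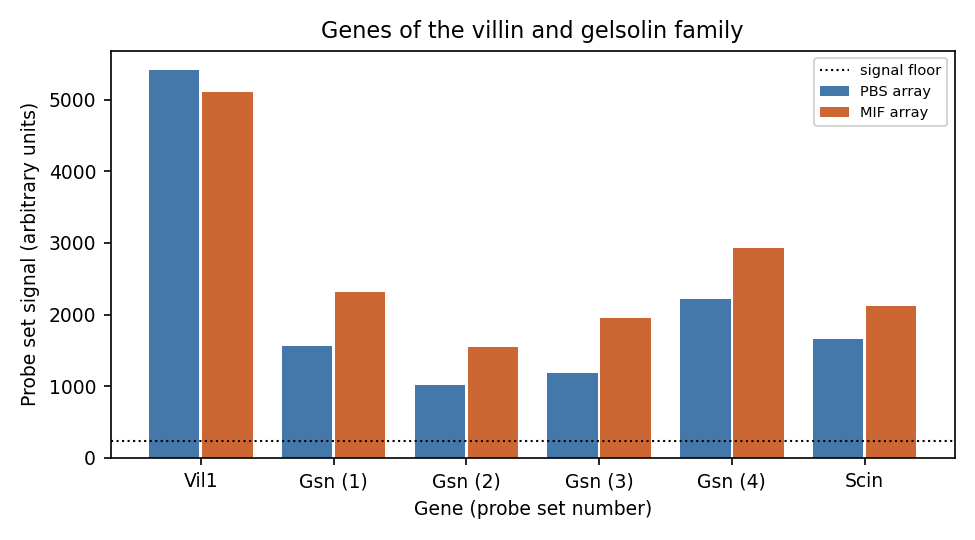
Signals on the PBS (blue) and MIF (orange) arrays for the single probe sets of Vil1 and Scin and the 4 probe sets of Gsn above the floor (dotted), on a linear axis from 0. The Gsn and Scin bars are higher with MIF in each pair, whereas Vil1 is at 5411 and 5111.

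The labelled cell type was set against its markers. Of 11 listed epithelial markers, 10 were above the floor on both arrays, with Epcam at 8889 and 8830. Their median difference was -0.08, with 9 of 10 lower, where 53.3% of all assessed genes were lower, and 7 differed by less than 0.15. The terminal web list, which shares the keratins of this list, had its median move from -0.08 to -0.03 with the trend with signal removed. The epithelial values are given without that step. Of the absorptive colonocyte markers, 9 of 9 in the table were above the floor, with a median of 0.06, 5 of them higher and 4 lower. Their summed signal was 45032 with PBS and 47780 with MIF, and the water channel Aqp4 made up much of that gap, at 3387 and 5201 (1.54-fold higher). Slc51a and Ms4a10 were 1.35-fold and 1.39-fold lower. The goblet cell markers, of the secretory cells that have only a sparse brush border, had a summed signal of 48101 and 51044. Clca1 made up much of that gap, at 4993 and 7092. The median difference of the goblet cell list was 0.03, with 6 of 7 higher and 1 lower, where 46.7% of all assessed genes were higher. Of these 7, 5 differed by less than 0.15. Among T and NK cell markers, Gzma was at 813 and 403 and Gzmb at 541 and 282. The summed signal of that list, mostly these 2 genes, was 1690 with PBS and 917 with MIF. The other 4 of its 6 markers in the table were under the floor on both arrays. The part of these other cell types in the small differences of the brush border cytoskeleton genes was not tested. In such bulk RNA, a change in the share of absorptive cells and a change in RNA per cell cannot be told apart.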

How the data were processed

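The deposited values are the authors' probe set signal intensity on a linear scale, as read from the values. Biotinylated cRNA was made by the standard Affymetrix protocol, per the labels' protocols. Summarisation, background correction, scaling and the choice of the 15340 probe sets are not stated in the sources used here, and 61 control probe sets were dropped. Names came from GEO's platform annotation, which can be old, and symbols were updated by Entrez ID for 14034 of 14049 singly named probe sets (490 had several symbols and 740 none). The column medians, 337 and 346, differed by 0.04 on the log2 scale, under the limit of 0.1 for centring. For the log2 differences, signals under the 40th percentile (232) were raised to it, and a gene was represented by its brightest probe set. Single signals and summed signals are given as deposited, without this step. With 1 array per group, genes past 1.5-fold were counted without a test, and precision is limited by the number of arrays. Genes named from a related list were its 3 largest differences above the floor. Actb, Actg1, Baiap2l1, Eps8l2, Eps8l3, Lcp1, Msn, Rdx, Myo1d, Myo5b, Myo6, Epcam, Aqp4, Ms4a10, Clca1, Guca2a, Guca2b, Cdh17, Dcn, Gzma and Gzmb fall outside that rule, chosen with their values known. Members and lists were chosen with earlier results of these data known. The steps were tested on simulated data. The software was matplotlib 3.10.9, statsmodels 0.14.6, pandas 2.3.3 and numpy 2.4.6 under Python 3.11.15. Median centring, quantile normalization, other floors, a loess trend and other uses of probe sets were tried as alternatives.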

Additional observations from a re-analysis of the deposited data

How the results depend on the processing

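The alternatives were median centring, quantile normalization, floors at the 20th and 60th percentile, no floor, removal of a loess trend with intensity (span 0.3), averaging the probe sets of a gene, and dropping those marked _x_at or _s_at. Over these 8 alternatives and the setting used, no member reached 1.5-fold, and the median of the 8 genes stayed below 0, from -0.10 with median centring to -0.03 with the trend removed. The median of all assessed genes ran from -0.05 to 0.0039. The direction of 7 members was the same in each of them, the exception being Eps8, from -0.03 with median centring to 0.15 with averaged probe sets. Those 7 have 1 probe set each, above every floor tried and not marked _x_at or _s_at. Only median centring, quantile normalization and trend removal could therefore change their values. Espn ran from -0.25 to -0.21, Ush1c from -0.21 to -0.16, Ezr from 0.08 to 0.16, Cdhr5 from 0.05 to 0.14, and Vil1 from -0.12 to -0.03. No member value or list median shifted by as much as 0.15, the SD found between a gene's probe sets. The counts of members at 1.2-fold and 2-fold were also 0 in both directions. The list medians kept a negative sign for the terminal web, apical trafficking and actin regulators, and changed sign under at least 1 alternative for the other 5 lists. Of the genes named from these lists, Hnf4a (-0.12 to 0.35), Cttn (-0.27 to 0.02), Actb (-0.16 to 0.04), Actg1 (-0.10 to 0.03), Baiap2l1 (-0.13 to 0.01) and Myo1d (-0.02 to 0.05) changed sign, while Gsn ran from 0.36 to 0.58. No paired analysis was possible because each group is 1 array, and for the same reason no replicate could be left out.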
